A study of Mus musculus with 8 samples.

Results

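Imprinted genes are expressed from only the maternal or only the paternal copy, and 49 mouse genes of this kind were followed here in the hippocampus. The 49 were chosen by name, grouped into chromosome clusters and by the parental allele that is expressed, and matched to the gene names of the array's probes. Of these, 46 had a probe under their name and 41 had a probe that could be tested, with 68 tested probes in all, out of 29406 tested probes and 55681 probes on the array. The 3 members with no probe under their name were Rian, Snurf and Snhg14. The 5 members whose probes were too dim to test were Peg10, Zim1, Phlda2, Kcnk9 and Slc38a4, each well above background on 3 or fewer of the 8 arrays.

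The samples were hippocampal RNA from female C57BL6/J mice, 4 of them after treatment with an anti-CD4 antibody and 4 after a control antibody. CD4 marks helper T lymphocytes. All mice were 8 weeks old and all had spent 4 weeks in an enriched environment, so no group in standard housing enters the comparison. Each sample was hybridised to a single-colour Agilent array of 60-base probes, and the loss of CD4 cells itself was not measured in these data. Whether each sample is a different mouse is not stated in the labels, and the p-values below therefore speak only of the spread among these 8 samples, which may be technical. Per array, 51.1% to 54.3% of the probes exceeded background clearly, and precision is limited by how many arrays there are. All 8 arrays lay on 1 slide with the anti-CD4 arrays in row 1 and the control arrays in row 2, so slide row and antibody cannot be told apart.

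Imprinting is set in the germ line by DNA methylation at control regions, and a single such region can govern a whole cluster of protein-coding genes and long noncoding RNAs. In the brain, imprinted genes are known for roles in growth, feeding, maternal care and neuronal signalling, and several of them are abundant in the hypothalamus. The Snrpn cluster of central chromosome 7 is the mouse counterpart of the human region of Prader-Willi and Angelman syndromes. There a long paternal transcript begins at Snrpn, carries the snoRNA Snord116 and the noncoding Ipw, and in neurons runs on through Ube3a in the antisense direction, where it silences the paternal copy of that ubiquitin ligase. In the Dlk1-Dio3 cluster of chromosome 12 the protein-coding genes are paternal, while the noncoding RNAs Meg3, Rian and Mirg, hosts of snoRNAs and miRNAs, are maternal.

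The probes below lie in these 2 clusters, in positions of mm9, the build of the files. They are the Snord116 and Ipw probes with a close match of each and the probes with the smallest p between Ube3a and Snrpn and between Meg3 and Mirg, shown because the results below turn on them. The first pair is the Snord116 probe at chr7:67024722-67024781 and an unnamed probe at chr7:67029790-67029849, both on the minus strand, with the first of their longest shared runs in capitals.
Snord116: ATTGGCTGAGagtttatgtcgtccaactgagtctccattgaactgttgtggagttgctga
chr7:67029790-67029849: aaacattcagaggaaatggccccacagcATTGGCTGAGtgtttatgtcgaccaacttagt
Aligned on that run, 29 of the 32 overlapping bases are identical. Snord116 exists in many near-identical tandem copies, so these probes may bind RNA from several of them. The second pair is the Ipw probe and a probe of an intergenic noncoding region, both placed at chr7:66874528-66874587 on the minus strand, again with the shared run in capitals.
Ipw: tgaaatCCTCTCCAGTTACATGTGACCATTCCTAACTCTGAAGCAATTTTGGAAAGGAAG
Region probe at the Ipw position: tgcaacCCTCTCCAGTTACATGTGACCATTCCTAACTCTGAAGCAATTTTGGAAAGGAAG
These 2 probes agree at 58 of 60 bases, so they read almost the same RNA and are not independent. The third pair consists of unnamed minus-strand probes with the 11 bases that end one and begin the other in capitals.
chr7:66868793-66868852: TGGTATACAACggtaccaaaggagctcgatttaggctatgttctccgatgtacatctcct
chr7:66829544-66829603: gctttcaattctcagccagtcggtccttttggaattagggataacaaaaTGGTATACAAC
The next lines give the minus-strand probe with the smallest p nearest to Ube3a, at chr7:66562380-66562439, and the plus-strand region probe with the smallest p between Meg3 and Mirg, at chr12:110844484-110844543, with no base singled out.
chr7:66562380-66562439: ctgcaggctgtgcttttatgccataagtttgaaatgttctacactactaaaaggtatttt
chr12:110844484-110844543: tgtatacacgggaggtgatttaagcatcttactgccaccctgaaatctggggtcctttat

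Over the whole set, no imprinted gene passed the threshold. Levels are given as log2 processed signal relative to the 75th percentile of each array, and every difference is the anti-CD4 mean minus the control mean of those log2 levels. In limma's moderated test with Benjamini-Hochberg adjustment over all tested probes, 0 of the 68 member probes had an adjusted p under 0.05, against 0% of all tested probes, and the smallest adjusted p of a member was 0.213. At an unadjusted p under 0.05 there were 9 member probes in 9 genes, against 13% of all tested probes, and 9 of 68 is 13.2%, so the share lay at the background. Of the 9, 6 were higher with anti-CD4, against 5.98% of all tested probes, and 3 were lower, against 6.99%. Groups did not overlap for 6 member probes, against 8.21% of all tested probes. They were 2 higher, against 3.77% of all, and 4 lower, against 4.43%. The count of 9 became 17 of 68 (25%) without anti-CD4 replicate 3, where the background was 15.7%, and 5 of 68 (7.35%) without control replicate 2, where 3145 of 29406 probes were under that p. The authors' deposited log2 values gave 14 of 68, against a background of 16.3%.

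The median difference over the brightest probe of each of the 41 members was 0.05, against 0.01 over the brightest probes of all 20894 tested gene names. It was 0.05 over 23 paternally expressed members, 0.07 over 12 maternally expressed members and -0.02 over 6 members whose expressed allele depends on transcript or tissue. These classes come from general knowledge of the genes, and the expressed allele was not measured in these samples. A class need not hold in every cell type, and Igf2r was counted as maternal although its silencing is described outside neurons. In all, 24 members had a positive difference and 17 a negative one, where 53.4% of all tested gene names had a positive one. Both signs occurred with either allele: 14 paternal members were positive and 9 negative, and 8 maternal members were positive and 4 negative.

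**Figure D1:**
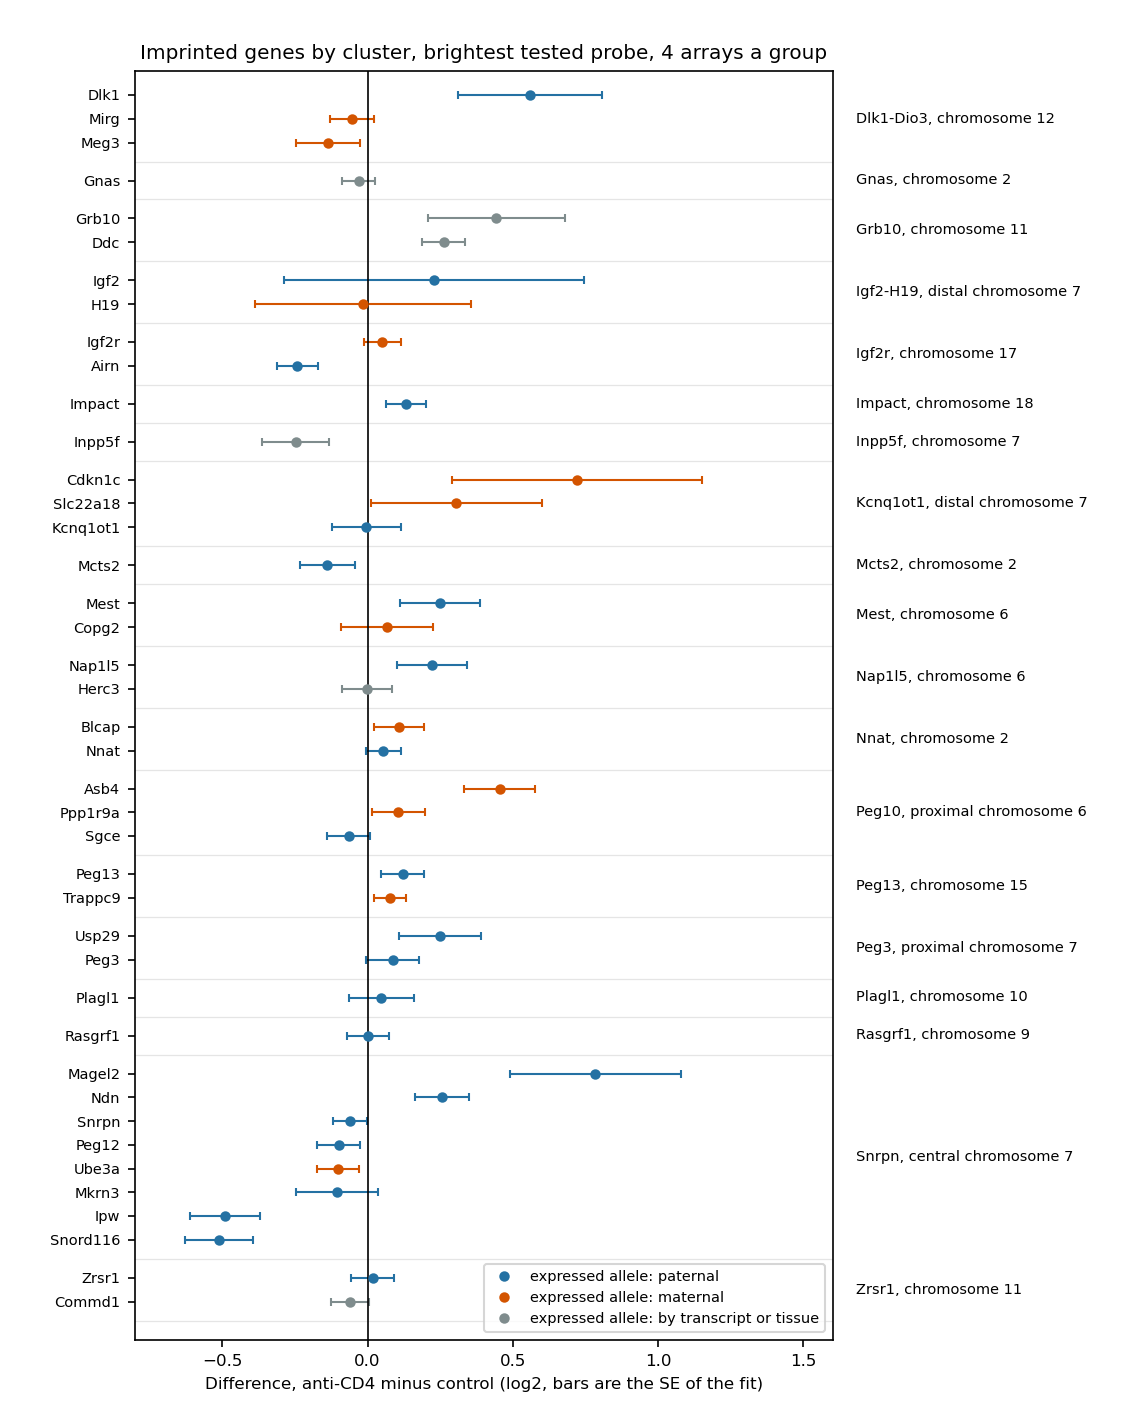
Difference of each of the 41 tested imprinted genes at its brightest probe, anti-CD4 minus control in log2 units, with the SE of the fit as bars, grouped by cluster and coloured by expressed allele. Snord116 and Ipw lie lowest, at -0.51 and -0.49, and Magel2 and Cdkn1c highest, at 0.78 and 0.72.

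**Figure D2:**
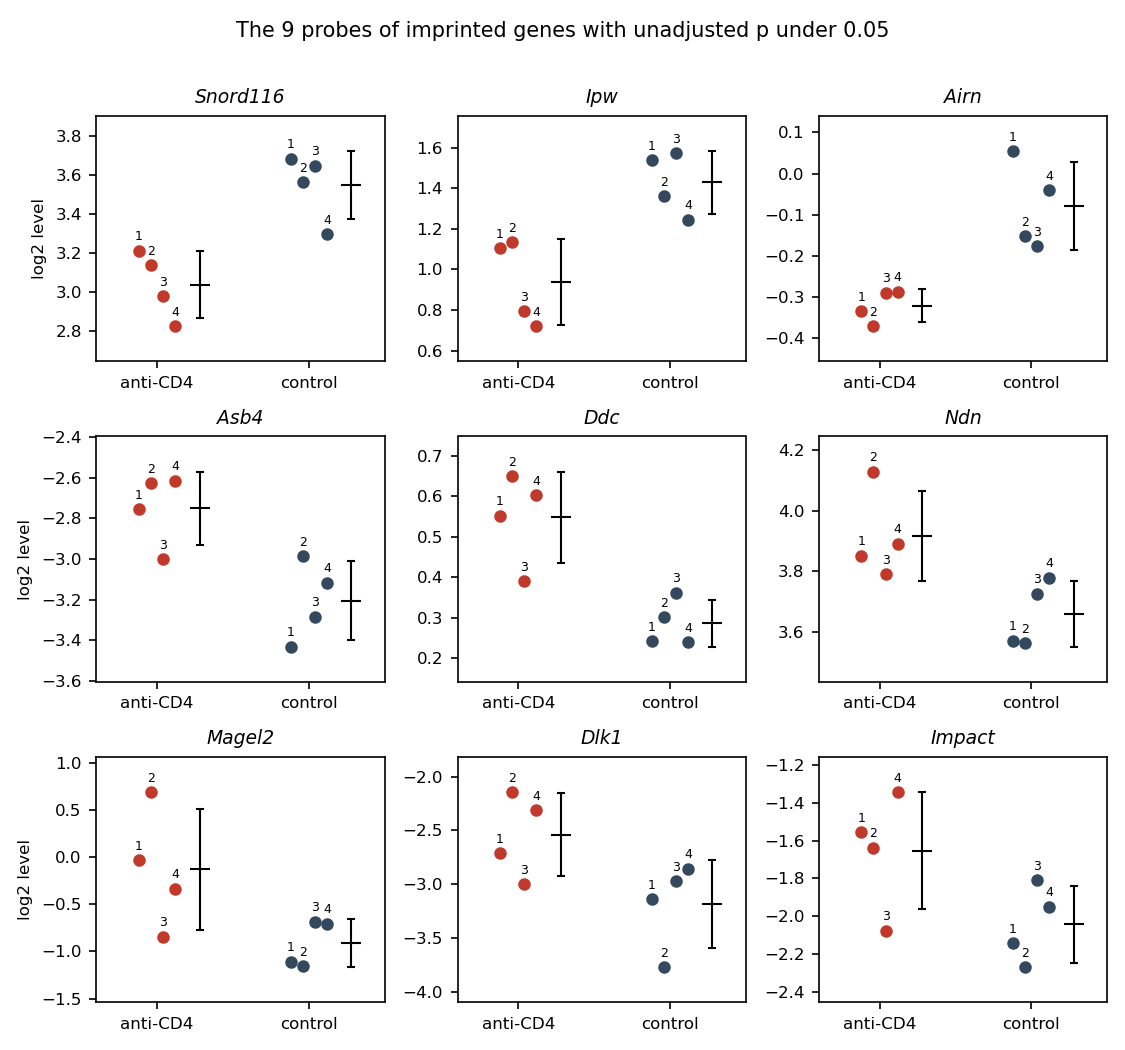
Log2 level per array of the 9 member probes with an unadjusted p under 0.05, anti-CD4 left and control right, with replicate numbers beside the points and mean and SD as bars (n = 4 a group). Groups do not overlap for Snord116, Ipw, Airn, Ddc and Ndn, and in the other 4 panels they overlap or touch.

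In the Snrpn cluster, the noncoding members of the long paternal transcript were lower with anti-CD4, without passing the adjusted threshold, while Snrpn itself differed by -0.06. Snord116 is an orphan snoRNA whose loss is tied to Prader-Willi syndrome in humans. Whether its probe reads the snoRNA itself or the longer RNA that carries it was not tested. The Snord116 probe had log2 levels of 3.21, 3.14, 2.98 and 2.82 in anti-CD4 samples, against 3.68, 3.56, 3.65 and 3.30 in control samples. Every anti-CD4 array lay below every control array. Its difference was -0.51 ± 0.12 (SE), a level 1.43-fold lower with anti-CD4, with an adjusted p of 0.213. In bulk tissue, fewer cells that express a gene and less RNA per cell cannot be told apart, here and in all that follows.

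Ipw, a spliced noncoding RNA downstream of Snord116, had log2 levels of 1.11, 1.13, 0.80 and 0.72 in anti-CD4 samples, against 1.54, 1.36, 1.57 and 1.24 in control samples. The groups again did not overlap. Its difference was -0.49 ± 0.12 with an adjusted p of 0.236, and the region probe with nearly the same sequence differed by -0.55 ± 0.11. Over the alternative settings and with each array left out, Snord116 ranged between -0.60 and -0.44 and Ipw between -0.56 and -0.42.

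Snrpn, which encodes the spliceosomal protein SmN and opens the transcript, had 3 tested probes. Its brightest probe had log2 levels of 5.30, 5.32, 5.28 and 5.38 in anti-CD4 samples, against 5.37, 5.43, 5.33 and 5.40 in control samples, a difference of -0.06 ± 0.06. The other probes differed by -0.0039 and by -0.10, the last with groups that did not overlap. Ube3a, the ubiquitin ligase expressed from the maternal copy in neurons, had log2 levels of -0.19, -0.10, -0.18 and -0.24 in anti-CD4 samples, against -0.15, 0.07, -0.16 and -0.06 in control samples. The groups overlapped, with a difference of -0.10 ± 0.07 and an adjusted p of 0.576.

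The array also holds probes between Ube3a and Snrpn that carry no member's name, and these were examined by strand after the values of the members had been seen. The window spans 579 kb at chr7:66561271-67140352. On the minus strand, the strand of Snrpn, Snord116 and Ipw, 22 of 23 such probes had a negative difference, with a median of -0.54, which was -0.27 with the authors' deposited log2 values, -0.28 with the brightest probe per name and -0.33 with normexp background correction. Of the 23, 15 had an unadjusted p under 0.05 and were lower with anti-CD4, and in 14 the groups did not overlap. On the plus strand, the strand of Ube3a, 17 of 25 were negative, the median was -0.07, and 1 of 25 was lower and 1 higher at that p, that higher one being above background on 4 anti-CD4 arrays and 1 control array. Among all 2619 tested minus-strand probes of intergenic noncoding regions, 10.7% were lower and 4.16% higher at that p, and 5.54% were lower with groups apart. Of the 2382 such probes on the plus strand, 10.9% were lower and 4.7% higher at that p, and 6.42% were lower with groups apart. Of all 5001 tested region probes on both strands, 44.2% had a positive difference, with a median of -0.026. The 23 also hold unnamed probes and D7Ertd715e, which are not among those region probes. Neighbouring probes can read the same RNA, so the 23 are not independent, and none passed the adjusted threshold. They include the close matches of the Snord116 and Ipw probes, so they are not independent of the members either.

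The unnamed probe at chr7:66868793-66868852 had log2 levels of 0.52, 0.50, 0.29 and 0.17 in anti-CD4 samples, against 1.45, 1.52, 1.40 and 1.14 in control samples. All 4 anti-CD4 arrays lay well under the lowest control array. Its difference of -1.01 ± 0.11, or 2.01-fold lower with anti-CD4, had the smallest unadjusted p of all tested probes, 1.14e-05, and an adjusted p of 0.148. The probe at chr7:66829544-66829603 had log2 levels of 0.67, 0.66, 0.35 and 0.26 in anti-CD4 samples, against 1.55, 1.59, 1.51 and 1.25 in control samples. It ranked 4 by p, with a difference of -0.99 ± 0.12 and an adjusted p of 0.148. With limma's trended and robust variance these were the only tested probes with an adjusted p under 0.05, at 0.014 and 0.021. The same held with the authors' deposited log2 values, at 0.0177 and 0.0455. In every other alternative fit, among them quantile scaling, normexp and each array left out, neither had an adjusted p under 0.05. With the replicate block the smallest adjusted p of all tested probes was 0.296.

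The minus-strand medians were lower away from Snrpn, a difference between stretches that was not tested. Within 100 kb of the Ube3a probe, 7 of 8 probes were lower with groups apart, against 4.43% of all tested probes, and the median was -0.62. These 8 lay only 1.1 to 9.6 kb from it. Neighbouring probes can read the same RNA, so the probes of a stretch are not independent. The probe at chr7:66562380-66562439 there had log2 levels of 0.44, 0.39, 0.41 and 0.25 in anti-CD4 samples, against 1.07, 1.18, 0.85 and 0.83 in control samples, a difference of -0.61 ± 0.10. Between 100 and 500 kb the median over 6 probes, at 218 to 469 kb, was -0.56, with 4 groups apart. Beyond 500 kb, next to Snrpn, the median over 9 probes, at 522 to 559 kb, was -0.25, with 3 groups apart. These distances were chosen after the values were seen.

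The probe named D7Ertd715e lies in that last stretch, at chr7:67083261-67083320 on the minus strand. The RefSeq table (GRCm38.p6) lists this name as a synonym of Snhg14, the host transcript of the snoRNAs, so the probe bears on a member without a probe of its own. Its log2 levels were -0.25, -0.18, -0.25 and -0.45 in anti-CD4 samples, against -0.01, 0.12, -0.01 and -0.11 in control samples. The groups did not overlap, and the difference was -0.28 ± 0.08 with an adjusted p of 0.253, and -0.15 with the authors' deposited log2 values.

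**Figure D3:**
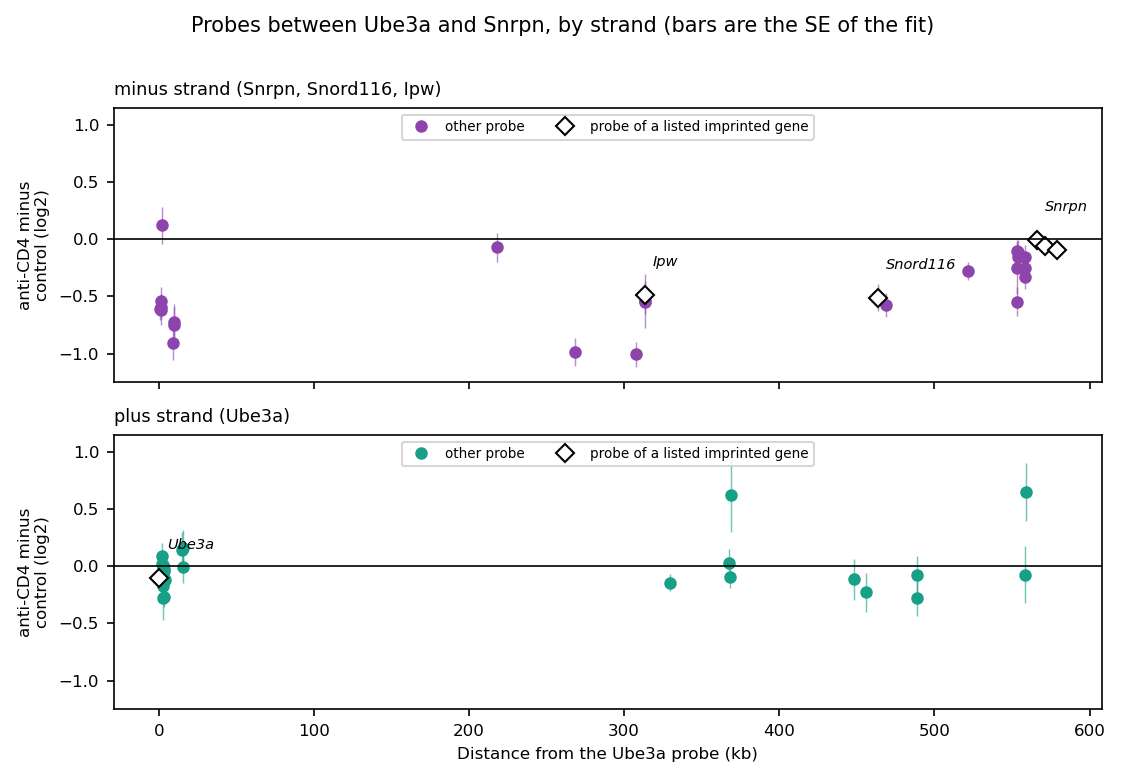
Difference per probe, anti-CD4 minus control in log2 units with the SE as bars, against distance in kb from the Ube3a probe, minus strand above and plus strand below. On the minus strand 22 of 23 probes that are not of a listed gene name lie below 0 with a median of -0.54 (-0.27 with the authors' deposited log2 values). D7Ertd715e is counted among the 23. On the plus strand the 25 probes that are not of a listed gene name have a median of -0.07.

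Farther along the same cluster, 2 protein-coding paternal genes pointed the other way. Magel2, a regulator of protein recycling by ubiquitin ligases that is strongly expressed in the hypothalamus, had log2 levels of -0.03, 0.69, -0.85 and -0.34 in anti-CD4 samples, against -1.11, -1.16, -0.68 and -0.71 in control samples. Anti-CD4 replicate 3 lay among the control arrays. The difference was 0.78 ± 0.29 with an adjusted p of 0.330, the largest positive difference of the 41 members. Ndn, a protein of differentiated neurons from the same MAGE family, had log2 levels of 3.85, 4.13, 3.79 and 3.89 in anti-CD4 samples, against 3.57, 3.56, 3.73 and 3.78 in control samples. The groups did not overlap by a narrow margin, and the difference was 0.26 ± 0.09 with an adjusted p of 0.317.

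Peg12, a paternal gene related to Frat proteins of Wnt signalling, had log2 levels of -0.68, -0.69, -0.82 and -0.64 in anti-CD4 samples, against -0.65, -0.46, -0.65 and -0.69 in control samples, a difference of -0.10 ± 0.07. The RING finger gene Mkrn3 differed by -0.11 and -0.08 at its 2 probes. None of these 3 probes had an unadjusted p under 0.05.

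In the Dlk1-Dio3 cluster, the paternal protein-coding gene Dlk1 had positive differences and the maternal noncoding RNA Meg3 negative ones, while the probes of Mirg had both signs, and none passed the test. Dlk1, a Notch-related transmembrane protein of progenitor cells, had log2 levels of 0.48, 0.80, -0.22 and 0.42 at its brighter probe in anti-CD4 samples, against -0.20, -0.72, 0.18 and -0.01 in control samples. Anti-CD4 replicate 3 again lay with the control arrays. The difference was 0.56 ± 0.25 at this probe and 0.64 ± 0.24 at the dimmer one, with adjusted p of 0.392 and 0.330.

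Meg3, the first noncoding RNA of the maternal transcript, had log2 levels of 6.01, 6.01, 5.76 and 5.74 at its brightest probe in anti-CD4 samples, against 6.27, 5.93, 5.999 and 5.87 in control samples. The groups overlapped, and the 3 Meg3 probes differed by -0.15, -0.12 and -0.14. Mirg, the miRNA host at the far end, had log2 levels of 2.82, 2.66, 2.68 and 2.53 at its brightest probe in anti-CD4 samples, against 2.79, 2.74, 2.68 and 2.68 in control samples. Its 3 probes disagreed in sign, at -0.05, -0.11 and 0.54, and the last had log2 levels of -0.93, -1.81, -2.82 and -2.48 in anti-CD4 samples, against -2.13, -2.64, -2.66 and -2.74 in control samples.

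Between Meg3 and Mirg, over 205 kb at chr12:110782745-110987628, the array holds 49 other tested probes, most of them of intergenic noncoding regions, and they too were examined by strand after the members' values had been seen. On the plus strand, that of Meg3 and Mirg, 31 of 35 had a negative difference, with a median of -0.19, which was -0.10 with the authors' deposited log2 values and -0.12 with normexp. Of these 35, 13 were lower at an unadjusted p under 0.05 and none higher, and in 8 the groups did not overlap. On the minus strand 9 of 14 were negative, the median was -0.10, and 2 were lower at that p. Among all tested minus-strand region probes, 10.7% were lower at that p. Of these 14, 9 were above background on all 8 arrays. Over all 2382 tested plus-strand region probes, 10.9% were lower and 4.7% higher at that p, and 6.42% were lower with groups apart. The 35 also hold probes of 6430411K18Rik, 1110006E14Rik and AK053394, which are not among those region probes. Neighbouring probes can read the same RNA and some overlap, so the 35 and the 14 are not independent, and none passed the adjusted threshold. Of all 5001 tested region probes on both strands, 44.2% had a positive difference. The region probe at chr12:110844484-110844543 had log2 levels of -2.23, -2.18, -2.29 and -2.12 in anti-CD4 samples, against -1.73, -1.77, -1.76 and -1.87 in control samples. Its groups were clearly apart, with a difference of -0.43 ± 0.07 and an adjusted p of 0.169.

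**Figure D4:**
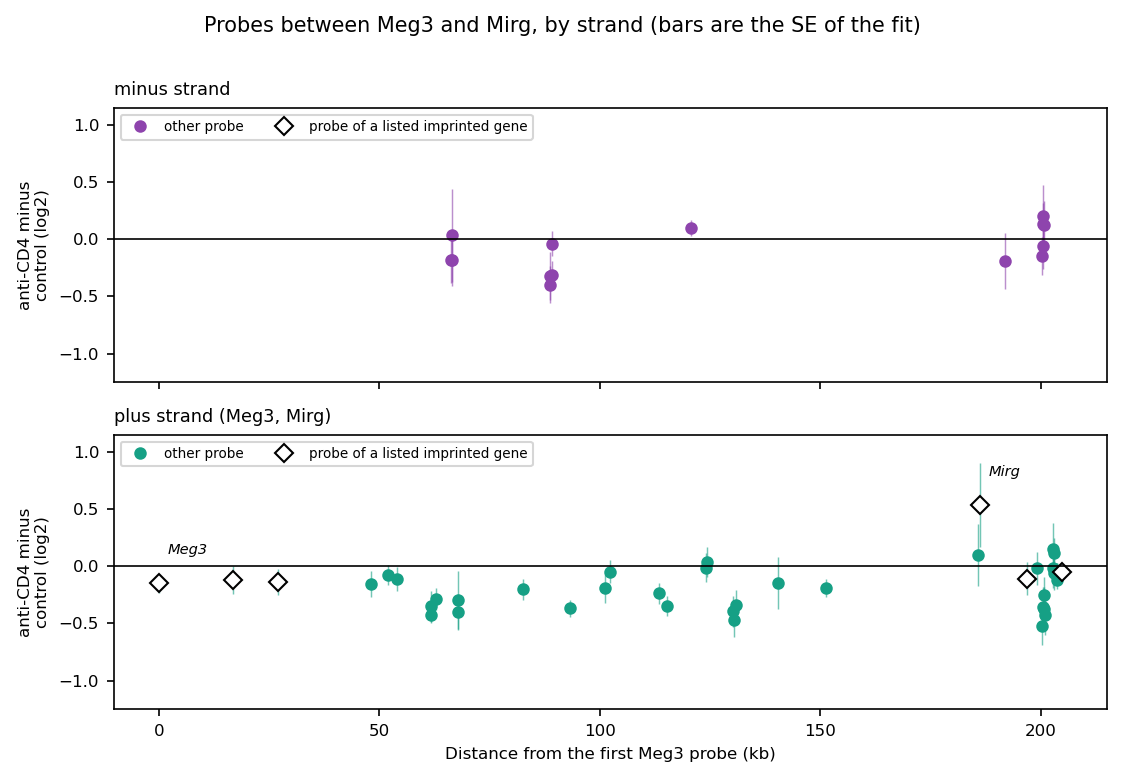
Difference per probe, anti-CD4 minus control in log2 units with the SE as bars, against distance in kb from the first Meg3 probe, minus strand above and plus strand below. On the plus strand 31 of 35 probes that are not of a listed gene lie below 0 with a median of -0.19 (-0.10 with the authors' deposited log2 values), while the 3 Meg3 probes lie between -0.15 and -0.12.

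Airn, the paternal noncoding RNA that overlaps Igf2r in antisense and silences it in cis outside neurons, was read by 2 probes that disagreed. The brighter one had log2 levels of -0.33, -0.37, -0.29 and -0.29 in anti-CD4 samples, against 0.05, -0.15, -0.18 and -0.04 in control samples. Its groups did not overlap, with a difference of -0.24 ± 0.07 and an adjusted p of 0.253. The dimmer one had log2 levels of -1.46, -1.45, -1.08 and -1.73 in anti-CD4 samples, against -1.48, -1.43, -1.84 and -1.30 in control samples, a difference of 0.08 ± 0.16. Igf2r, the receptor that clears IGF2, had log2 levels of 1.01, 1.07, 1.17 and 1.07 in anti-CD4 samples, against 1.02, 1.01, 0.97 and 1.11 in control samples, a difference of 0.05 ± 0.06.

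Both members of the Grb10 cluster of chromosome 11 had positive differences. Ddc, the decarboxylase that makes dopamine and serotonin, had log2 levels of 0.55, 0.65, 0.39 and 0.60 in anti-CD4 samples, against 0.24, 0.30, 0.36 and 0.24 in control samples. The groups did not overlap, and the difference was 0.26 ± 0.07 with an adjusted p of 0.250, with 0.24 ± 0.17 at its dimmer probe. Grb10, an adaptor that restrains insulin and IGF signalling and is paternal in neurons, had log2 levels of -1.60, -1.42, -2.32 and -1.59 in anti-CD4 samples, against -2.10, -2.72, -1.97 and -1.91 in control samples. Anti-CD4 replicate 3 lay below 3 of the control arrays, and the difference was 0.44 ± 0.24 with an adjusted p of 0.460.

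On proximal chromosome 6, Asb4, a maternally expressed SOCS-box protein known from hypothalamic feeding neurons, had log2 levels of -2.75, -2.63, -3.00 and -2.61 in anti-CD4 samples, against -3.43, -2.99, -3.28 and -3.12 in control samples. Anti-CD4 replicate 3 and control replicate 2 met at the border of the groups. The difference was 0.46 ± 0.12 with an adjusted p of 0.245. Its neighbours differed less, Ppp1r9a, a neuronal actin-binding protein, by 0.11 and 0.14 at its probes and Sgce, a sarcoglycan mutated in human myoclonus dystonia, by -0.06.

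Impact, a regulator of translation under amino acid shortage on chromosome 18, was read by 2 probes of the same sign and different size. The brighter one had log2 levels of 5.50, 5.64, 5.43 and 5.60 in anti-CD4 samples, against 5.38, 5.35, 5.45 and 5.45 in control samples, a difference of 0.13 ± 0.07. The dimmer one had log2 levels of -1.56, -1.64, -2.08 and -1.34 in anti-CD4 samples, against -2.14, -2.27, -1.81 and -1.95 in control samples, a difference of 0.39 ± 0.16 with an adjusted p of 0.364. In both, anti-CD4 replicate 3 was the lowest of its group.

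Igf2, Cdkn1c, Slc22a18 and Mest had their lowest levels on the same 3 arrays, and none had an unadjusted p under 0.05. Igf2, the fetal growth factor that in the adult brain is made by choroid plexus and meninges, had log2 levels of -2.88, -1.92, -1.29 and -1.68 in anti-CD4 samples, against -1.08, -2.87, -3.20 and -1.54 in control samples. Anti-CD4 replicate 1 and control replicates 2 and 3 were the 3 lowest arrays, and the difference was 0.23 ± 0.52. Cdkn1c, a maternal inhibitor of the cell cycle, had log2 levels of 0.06, 0.998, 1.25 and 0.97 in anti-CD4 samples, against 0.96, -0.35, -0.90 and 0.70 in control samples, with the same 3 arrays lowest and a difference of 0.72 ± 0.43.

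Slc22a18, a member of a transporter family, differed by 0.31 ± 0.29 and had the same 3 lowest arrays. Mest, a paternal hydrolase-like protein of the mesoderm, had log2 levels of 0.66, 0.96, 0.91 and 0.88 at its brightest probe in anti-CD4 samples, against 0.88, 0.36, 0.37 and 0.80 in control samples, a difference of 0.25 ± 0.14. Its other probes differed by 0.04 ± 0.17 and 0.12 ± 0.16. The same 3 arrays were lowest at the brightest probe. Ttr, the transthyretin of choroid plexus epithelium, was also lowest on these arrays, at 1.22, 7.60, 8.48 and 7.75 in anti-CD4 samples, against 8.16, 2.72, -0.46 and 8.26 in control samples. Of the 41 members, 5 shared these 3 lowest arrays, the fifth being Igf2r, against 3.16% of all tested gene names. Ttr falls into separate clusters of arrays, so no correlation with it is given, and the part of choroid plexus in the values of these genes was not tested.

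H19, the maternal noncoding RNA paired with Igf2, was above background on 2 arrays of each group at its 1 tested probe. Its log2 levels were -3.35, -5.19, -3.58 and -4.03 in anti-CD4 samples, against -3.67, -4.46, -3.89 and -4.09 in control samples, so no difference was detectable. Kcnq1ot1, the paternal noncoding RNA that silences the Cdkn1c domain, had log2 levels of 0.51, 0.54, 0.76 and 0.24 at its brighter probe in anti-CD4 samples, against 0.47, 0.35, 0.55 and 0.69 in control samples, a difference of -0.0037 ± 0.12. Its dimmer probe differed by -0.14 ± 0.14. In both genes every control array lay within the range of the anti-CD4 arrays.

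**Figure D5:**
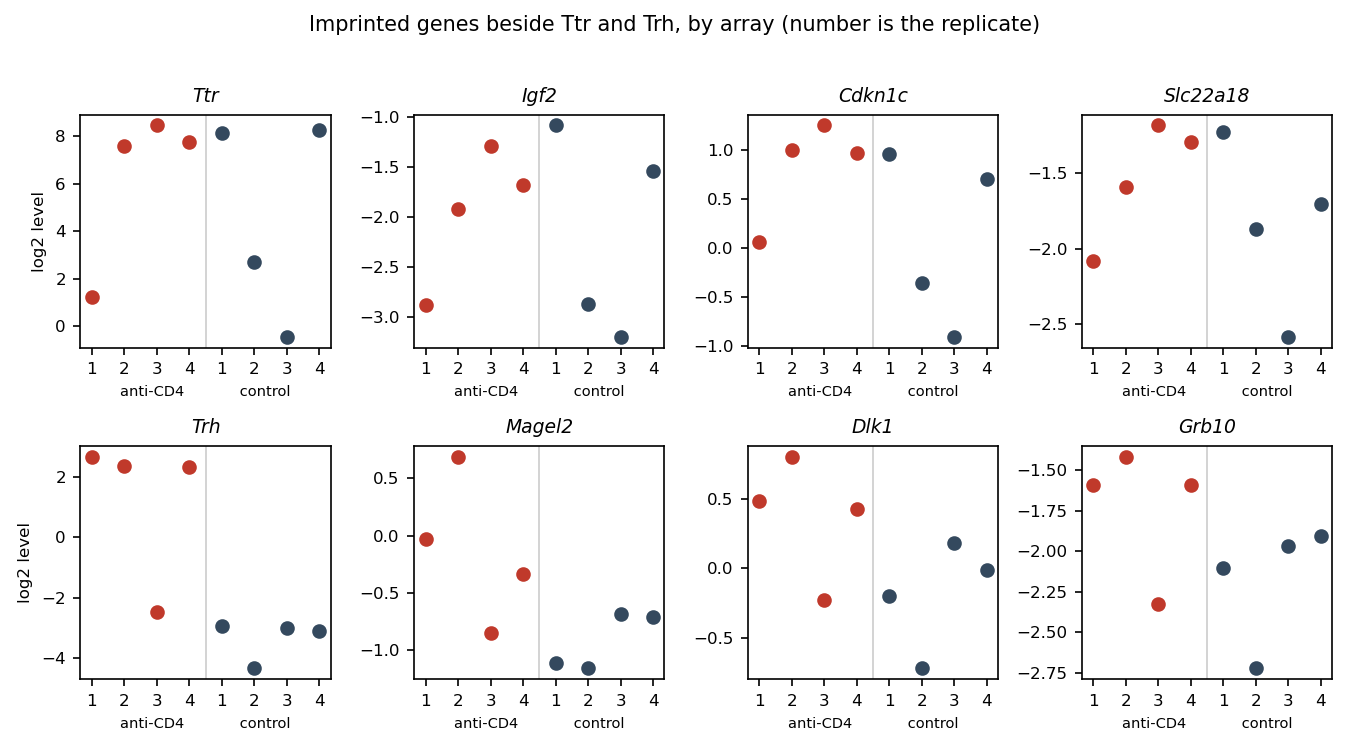
Log2 level per array of Ttr and Trh beside 3 imprinted genes each, anti-CD4 arrays 1 to 4 left and control arrays 1 to 4 right. Igf2, Cdkn1c and Slc22a18 are lowest on the 3 arrays where Ttr is lowest, and Magel2, Dlk1 and Grb10 are lowest of the anti-CD4 group on replicate 3, as Trh is.

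The level of Trh, the thyrotropin-releasing hormone of hypothalamus and neighbouring forebrain, was 2.68, 2.37, -2.49 and 2.34 in anti-CD4 samples, against -2.94, -4.36, -3.02 and -3.10 in control samples. Anti-CD4 replicate 3 was the lowest of its group and lay just above the highest control array, whereas for Magel2, Dlk1 and Grb10 it lay within the range of the control arrays. Of the 24 members with a positive difference, 17 had this replicate lowest in the anti-CD4 group, against 42.2% of all tested gene names with a positive difference. Of the 17 members with a negative difference, 3 had it lowest, against 28.7%. A difference must rise when the lowest array of the higher group is left out. Without anti-CD4 replicate 3, Magel2 differed by 1.02, Dlk1 by 0.76 and Grb10 by 0.64, the highest values over all settings. The lowest were 0.51 for Magel2 without anti-CD4 replicate 2, 0.38 for Dlk1 without control replicate 2 and 0.17 for Grb10 with the authors' deposited log2 values.

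Over the marker list of hypothalamus and amygdala, 12 of 23 genes were tested, all 12 had a positive difference and 8 were higher at an unadjusted p under 0.05, against 5.98% of all tested probes. Esr1, the estrogen receptor alpha, is in both counts and was above background on 4 anti-CD4 arrays and 0 control arrays, so it could be tested only through the group in which it was high. The centred list mean ranged between -0.27 and 1.05 on anti-CD4 arrays, against -0.81 to -0.41 on control arrays. The defining hypothalamic genes Avp, Oxt, Agrp, Pmch, Sim1, Otp and Nkx2-1 were not above background on enough arrays to test. Of all tested gene names, 53.4% had a positive difference at the brightest probe. Markers of a list can vary together, so their signs are not independent. For the choroid plexus list, 16 of 16 were positive and none had an unadjusted p under 0.05, against 13% of all tested probes. Its means lay between -2.53 and 2.34 on anti-CD4 arrays, against -3.19 to 1.82 on control arrays. They were low on anti-CD4 replicate 1 (-2.53) and on control replicates 2 and 3 (-2.37 and -3.19).

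For hippocampal neurons, 13 of 15 markers were negative and 3 were lower at that p, against 6.99% of all tested probes, with means between -0.43 and 0.13 on anti-CD4 arrays, against -0.03 to 0.25 on control arrays. Myelin markers were negative for 9 of 12, with 4 lower at that p, against the same 6.99%, and means between -0.26 and 0.13 on anti-CD4 arrays, against -0.08 to 0.19 on control arrays. Red blood cell genes were positive for 5 of 6 with all 5 higher at that p, against 5.98% of all tested probes, and means between 0.11 and 0.28 on anti-CD4 arrays, against -0.38 to -0.07 on control arrays. The sixth, Bpgm, differed by -0.06 with groups that did not overlap. Meningeal and fibroblast genes were positive for 13 of 16 with none at that p and means between -0.13 and 0.28 on anti-CD4 arrays, against -0.50 to 0.25 on control arrays. The part of each of these lists in the values of Magel2, Dlk1, Asb4, Snord116, Ipw and the other members was not tested.

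The members not yet described had differences at their brightest probes between -0.25 and 0.25. Nap1l5, a nucleosome assembly protein, had log2 levels of 4.59, 4.86, 4.44 and 4.92 at its brighter probe in anti-CD4 samples, against 4.41, 4.33, 4.59 and 4.60 in control samples, a difference of 0.22 ± 0.12. Its dimmer probe gave 2.24, 2.48, 2.22 and 2.54 in anti-CD4 samples, against 2.50, 2.48, 2.37 and 2.39 in control samples, and the opposite sign at -0.07 ± 0.09. Herc3, the ubiquitin ligase gene that holds Nap1l5 in an intron, had log2 levels of 4.25, 4.13, 4.15 and 4.21 at its brighter probe in anti-CD4 samples, against 4.00, 4.32, 4.31 and 4.12 in control samples, a difference of -0.0013 ± 0.09, with 0.07 at its dimmer probe.

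Peg3, a zinc finger protein tied to maternal behaviour, had log2 levels of 0.57, 0.72, 0.42 and 0.66 in anti-CD4 samples, against 0.65, 0.37, 0.57 and 0.45 in control samples, a difference of 0.09 ± 0.09. Its neighbour Usp29 differed by 0.25 ± 0.14. Peg13, a noncoding RNA within Trappc9, had log2 levels of 5.64, 5.68, 5.47 and 5.69 in anti-CD4 samples, against 5.49, 5.41, 5.56 and 5.54 in control samples, a difference of 0.12 ± 0.07. Trappc9, a maternal vesicle trafficking gene of the brain, differed by 0.08 and 0.19 at its probes.

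Nnat, a proteolipid of the endoplasmic reticulum, had log2 levels of 4.37, 4.47, 4.35 and 4.47 at its brighter probe in anti-CD4 samples, against 4.32, 4.35, 4.39 and 4.39 in control samples, a difference of 0.05 ± 0.06. Blcap, in whose intron Nnat lies, differed by 0.11 ± 0.09. Mcts2, a retrogene, had log2 levels of 2.01, 1.94, 1.87 and 1.91 in anti-CD4 samples, against 2.01, 2.29, 2.11 and 1.86 in control samples, a difference of -0.14 ± 0.09. None of these 3 genes had an unadjusted p under 0.05.

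Plagl1, a zinc finger regulator of growth, had 4 tested probes with differences between -0.10 and 0.05. Its brightest had log2 levels of 3.49, 3.81, 3.38 and 3.55 in anti-CD4 samples, against 3.47, 3.33, 3.56 and 3.67 in control samples. Rasgrf1, a Ras exchange factor of neurons, had log2 levels of 3.97, 3.92, 4.14 and 3.92 in anti-CD4 samples, against 3.90, 4.01, 3.96 and 4.07 in control samples, a difference of 0.0014 ± 0.07, with -0.11 at its other probe. Zrsr1, a retrogene related to a splicing factor, had log2 levels of 2.95, 2.85, 2.67 and 2.89 in anti-CD4 samples, against 2.77, 2.86, 2.85 and 2.81 in control samples. That difference was 0.02 ± 0.07, and Commd1, its host gene, differed by -0.06.

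Gnas, which encodes the stimulatory G protein alpha subunit and several other transcripts, had log2 levels of 6.89, 6.98, 6.95 and 6.99 at its brighter probe in anti-CD4 samples, against 7.05, 6.94, 6.97 and 6.98 in control samples. Its brighter probe differed by -0.03 ± 0.06 and its dimmer one by 0.18 ± 0.11. The dimmer one had log2 levels of 4.25, 4.35, 4.01 and 4.40 in anti-CD4 samples, against 3.88, 4.05, 4.26 and 4.10 in control samples, so the 2 probes of the gene disagreed in sign. Copg2, a coatomer subunit next to Mest, had log2 levels of 1.54, 1.56, 2.17 and 1.84 in anti-CD4 samples, against 1.49, 1.97, 1.64 and 1.74 in control samples, with differences of 0.07 and -0.08 at its probes.

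Inpp5f, an inositol phosphatase with a paternal brain transcript, had log2 levels of -1.37, -1.68, -1.59 and -1.53 at its brighter probe in anti-CD4 samples, against -1.48, -1.02, -1.27 and -1.42 in control samples. The groups overlapped, and the difference was -0.25 ± 0.11 with an adjusted p of 0.407. Its dimmer probe differed by 0.04 ± 0.12. In all, 9 of the 21 members with several tested probes had probes of both signs.

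Genes that set, keep or read imprints were compared as a list. Of 30 genes, 27 were tested, 9 positive and 18 negative with a median of -0.03, and 1 was higher and 2 lower at an unadjusted p under 0.05. Smc3, a cohesin subunit, differed by 0.32 ± 0.09, Setdb1, a histone H3 lysine methyltransferase, by -0.19 ± 0.07, Dnmt3l, a cofactor of germ line methylation, by -0.41 ± 0.16 and Kdm1b, a histone demethylase of the oocyte, by -0.17 ± 0.08. None had an adjusted p under 0.05, and the 3 probes at the unadjusted p are 3 of 27, against 13% of all tested probes.

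A further list held 43 other genes reported as imprinted in at least one tissue. Of these, 33 were tested, 22 positive and 11 negative with a median of 0.08, and 4 were higher and none lower at an unadjusted p under 0.05, against 5.98% and 6.99% of all tested probes. Phactr2, a phosphatase and actin regulator, differed by 0.57 ± 0.15, Qpct, a glutaminyl cyclase, by 0.24 ± 0.07 and Th, the rate-limiting enzyme of dopamine synthesis, by 0.28 ± 0.11. The organic cation transporter Slc22a2 differed by 0.88 ± 0.33 but was above background on 3 anti-CD4 arrays and 1 control array. None had an adjusted p under 0.05.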

How the data were processed

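Hippocampal RNA of 4 anti-CD4 and 4 control samples was measured on array design 028005, and the deposited spot intensity is the processed signal of Feature Extraction 10.7.3.1, from which background and spatial trend had been removed array by array, per the file headers. The authors also deposited log2 values of the same probes, with medians of 7.83 on every array. Their order over the probes follows the scanner's median signal of the same array, with rank correlations of 0.99999 or more. A rank correlation does not show their scale, and the median differences around Snrpn and Meg3 were smaller in size with them. Their centring is not given in the sources used here, and the submitters' processing notes name limma. Control spots and outlier-flagged spots were left out, unless all spots of a probe were flagged, and spots of a probe were averaged. The intensity was set to log2 minus the array's 75th percentile, and probes well above background on 4 or more of the 8 arrays were kept. The test was limma's moderated one (lmFit, eBayes; limma 3.58.1, R 4.3.3), two-sided, adjusted by Benjamini-Hochberg over all tested probes with a threshold of 0.05, and the code was tested on simulated data. Groups and replicate numbers come from the sample titles.

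A gene was represented by its brightest tested probe unless several are given. Members were matched on the files' gene names, positions are those of the files on mm9, and the RefSeq table (GRCm38.p6) served for synonyms only. All 49 members are accounted for. Array values are given for up to 8 members per direction with the smallest p, for lead genes of clusters and for members whose probes differ in sign, and up to 4 genes are named from each gene list. The members, the lists, the tests and the windows around Snrpn and Meg3 were chosen with earlier results of these data known. Alternatives were quantile and median scaling, normexp with an offset of 50, other filters, the authors' log2 values, a replicate block, a trended robust variance, the brightest probe per gene and leaving out each array.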

Additional observations from a re-analysis of the deposited data

Results flagged for a closer look

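Among 102 groups of 4 values (41 members, Ttr, Trh and 8 marker lists, by antibody), 4 had an array far from the other 3, and chance alone gives about 5% of such groups. None of the 4 was an imprinted gene. Ttr stood at 1.22 on anti-CD4 replicate 1, against 7.60 to 8.48 on the other anti-CD4 arrays. Trh stood at -2.49 on anti-CD4 replicate 3, against 2.34 to 2.68 on the other anti-CD4 arrays. On control replicate 2, Trh stood at -4.36, against -3.10 to -2.94 on the other control arrays, and the mean of the hypothalamus and amygdala list stood at -0.81, against -0.47 to -0.41.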

How the results depend on the processing

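No imprinted probe had an adjusted p under 0.05 as reported or under any of the 17 alternatives. The count at an unadjusted p under 0.05 was 9 as reported, 14 with the authors' log2 values, and 5 to 17 with an array left out. The median of maternally expressed genes was 0.07 as reported, 0.11 with the array median, 0.12 with the mean over a gene's probes, and 0.052 to 0.11 with an array left out. The minus-strand median between Ube3a and Snrpn, a result added after seeing the data, was -0.54 as reported, -0.33 with normexp, -0.27 with the authors' values, -0.28 with the brightest probe per name, which leaves fewer probes, and -0.57 to -0.47 with an array left out. Other medians moved by less than the spread between arrays. Of 696 values of single members under alternatives, 664 kept their sign and 32, in 9 genes, did not, and the cause was not tested. With the array median, the signs turned for Gnas (0.0028), Herc3 (0.032), Kcnq1ot1 (0.0300) and H19 (0.019). With normexp they turned for H19 (0.25), Kcnq1ot1 (0.0045) and Rasgrf1 (-0.0086), with quantile scaling for H19 (0.036) and Rasgrf1 (-0.022), and with the authors' values for H19 (0.17) and Rasgrf1 (-0.019). With an array left out, Igf2, reported as 0.23, ranged between -0.11 and 0.59, Plagl1 between -0.035 and 0.11, Copg2 between -0.062 and 0.15, Zrsr1 between -0.018 and 0.075, H19 between -0.24 and 0.37, Kcnq1ot1 between -0.085 and 0.086, Rasgrf1 between -0.048 and 0.029 and Herc3 between -0.064 and 0.043. Replicate numbers are shared between groups, and same-numbered arrays lay in the same slide column. Deviations of same-numbered arrays from their group means had correlations of -0.44, -0.28, -0.31 and 0.28. Such correlations cannot decide whether the samples were paired, and the sample titles do not say. With the replicate block, 7 member probes had an unadjusted p under 0.05 and 0 an adjusted one. Dim probes such as H19, above background on 4 of 8 arrays, limit what signal over background can show.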
